A study of Mus musculus with 180 samples.

Results

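Cd80, Cd86, Icosl, Cd274, Pdcd1lg2 and Cd83 encode surface ligands with which antigen-presenting cells raise or restrain a T cell response. The 6 genes were taken by symbol from a table of 45070 genes, and all 6 were found. Poly(A) RNA-seq was performed on bone marrow-derived macrophages (BMDMs) of wild-type male C57/BL6 mice aged 6 to 8 weeks, cultured for 1 h with a clinical kinase inhibitor (CKI) or with the solvent DMSO and then for 2 h with bacterial lipopolysaccharide (LPS) at 10 ng/ml. Each of 58 CKIs had 3 samples and DMSO had 6, in the sets DMSOs1 and DMSOs2 of 3 each, which gave 180 samples. All groups received LPS, so the values describe stimulated macrophages and not the induction of a ligand by LPS. Each CKI was used at a concentration of its own, so values of different CKIs are set side by side without a comparison between them. The study set each concentration by binding to an intended target, which for some CKIs differed from the designated one. The replicates were described by the study as independent biological replicates.

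CD80 (B7-1) and CD86 (B7-2) bind CD28, which delivers the costimulatory signal to T cells, and CTLA-4, which restrains them. ICOSL engages ICOS on activated T cells, while PD-L1, encoded by Cd274, and PD-L2, encoded by Pdcd1lg2, engage the inhibitory receptor PD-1. CD83 marks mature dendritic cells and protects CD86 and MHC class II from the ubiquitin ligase MARCH1. In macrophages, Toll-like receptor 4 raises several of these genes through NF-kB, and interferon acting through JAK kinases is a well-known inducer of Cd274.

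Cd274 and Pdcd1lg2 are neighbours on chromosome 19, on the same strand, with 22.8 kb between the end of Cd274 (mm10, chr19:29367438-29388095) and the start of Pdcd1lg2 (chr19:29410919-29472927). Cd86 (chr16:36603869-36666077, minus strand) and Cd80 (chr16:38458933-38495958, plus strand) start 1.79 Mb apart on chromosome 16. Icosl lies on chromosome 10 (chr10:78069368-78079525) and Cd83 on chromosome 13 (chr13:43785112-43803133), both on the plus strand. Values count reads over the exons of each gene.

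Promoter sequences from RefSeq (GRCm38.p6) were matched for 4 of the 6 genes: Cd80, Icosl, Cd274 and Pdcd1lg2. The 250 bases before the start are shown for 3 of them: the neighbours Cd274 and Pdcd1lg2, whose levels lay far apart, and Icosl, which with Cd274 was among the genes that rose with BGT226. Capitals mark matches on either strand to the NF-kB pattern of GGG, any 5 bases and CC.
Cd274, chr19:29367188-29367437, plus strand: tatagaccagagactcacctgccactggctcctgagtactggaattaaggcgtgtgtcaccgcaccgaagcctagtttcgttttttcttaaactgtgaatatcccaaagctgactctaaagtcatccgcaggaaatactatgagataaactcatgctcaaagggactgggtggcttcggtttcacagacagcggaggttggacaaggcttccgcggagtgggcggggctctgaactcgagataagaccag
Pdcd1lg2, chr19:29410669-29410918, plus strand: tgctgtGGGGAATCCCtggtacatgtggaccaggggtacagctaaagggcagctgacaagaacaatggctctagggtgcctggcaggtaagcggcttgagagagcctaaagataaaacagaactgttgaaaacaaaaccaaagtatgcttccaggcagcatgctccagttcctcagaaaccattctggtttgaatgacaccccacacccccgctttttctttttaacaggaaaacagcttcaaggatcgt
Icosl, chr10:78069118-78069367, plus strand: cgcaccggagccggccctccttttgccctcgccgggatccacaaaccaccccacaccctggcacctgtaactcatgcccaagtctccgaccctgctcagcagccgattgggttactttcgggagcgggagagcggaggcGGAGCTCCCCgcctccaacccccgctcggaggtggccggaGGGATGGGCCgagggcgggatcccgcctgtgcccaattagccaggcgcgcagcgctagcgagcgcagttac

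In windows of 250 bases before to 50 after the start, the NF-kB pattern was matched in 3 of the 4 genes (Cd80, Icosl and Pdcd1lg2) and in 50.8% of all 32851 RefSeq windows. Neither the interferon-stimulated response element pattern (GAAA, any 2 bases and GAAA), held by 3.44% of all windows, nor the gamma-activated site pattern (TTC, any 3 bases and GAA), held by 8.30%, was matched in any of the 4 genes. The AP-1 pattern TGANTCA, held by 7.81% of all windows, was matched in Cd80 alone. CpG dinucleotides numbered 26 in the window of Icosl and 15 in that of Cd274, against 3 in each of Cd80 and Pdcd1lg2 and a median of 7 over all windows. The 4 motifs were searched on both strands, and a match is a description of letters in this window.

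Per kilobase of exon, the 6 genes spanned a wide range of levels in the DMSO samples. Cd83 stood highest at 6554 normalized reads per kb, followed by Cd274 at 810, Icosl at 403, Cd86 at 127, Cd80 at 12.0 and Pdcd1lg2 at 0.439. Neighbours in this order were separate in every DMSO sample, as plotted for the levels per kb.

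**Figure D1:**
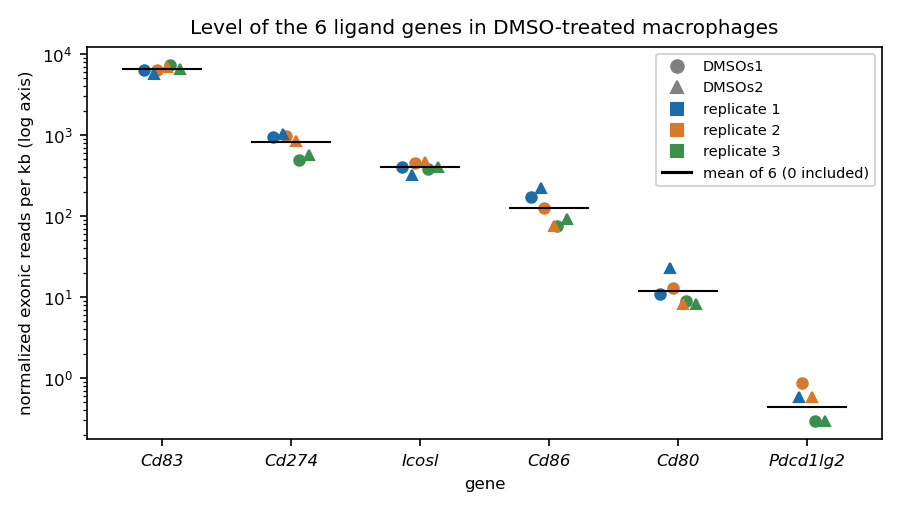
Level of each ligand gene in the 6 DMSO samples, in normalized exonic reads per kb of exon on a log axis; circles are DMSOs1, triangles DMSOs2, colours the replicate number and black lines the mean. The sample of Pdcd1lg2 with a value of 0 is not drawn on the log axis but is in its mean of 0.439, while Cd83 has a mean of 6554.

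Pdcd1lg2 was close to silent in these macrophages. Its normalized read counts in DMSO were 0, 3 and 1 in DMSOs1 and 2, 2 and 1 in DMSOs2, and over all 180 samples they ran from 0 to 7, with 0 in 77 samples. The highest mean, 3.33, was with Afatinib (7, 2 and 1). Differences of Pdcd1lg2 were therefore not detectable at this depth. It did not pass the filter of a mean of 10 and was not tested. Without the filter, limma called it in 0 of 58 CKIs, with 7 at an unadjusted p under 0.05 and a lowest adjusted p of 0.0798.

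The other 5 genes passed the filter and were tested in 290 comparisons with limma on log2(normalized read count + 1), with Benjamini-Hochberg adjustment over 12714 genes within each CKI and a threshold of 0.05. A called gene is one past this threshold, and fold changes are on this log2 scale. In all, 20 of the 290 passed, 13 higher and 7 lower, spread over 10 CKIs, while 4.18% of the tests of all genes passed. Cd83 was called in 9 CKIs, Cd86 in 4, Cd274 and Icosl in 3 each and Cd80 in 1. Of all genes tested, 2.97% were called in as many CKIs as Cd83 or more, 26.0% as many as Cd86, 38.1% as many as Cd274 or Icosl, and 74.8% as many as Cd80. The spread among replicates differed as well, with a residual SD on the log2 scale of 0.15 for Cd83, 0.34 for Icosl, 0.43 for Cd274, 0.47 for Cd86 and 0.52 for Cd80. A change of a given size was thus less readily called for Cd80 than for Cd83. The CKI comparisons share the same 6 DMSO samples, so their values are not independent of each other.

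**Figure D2:**
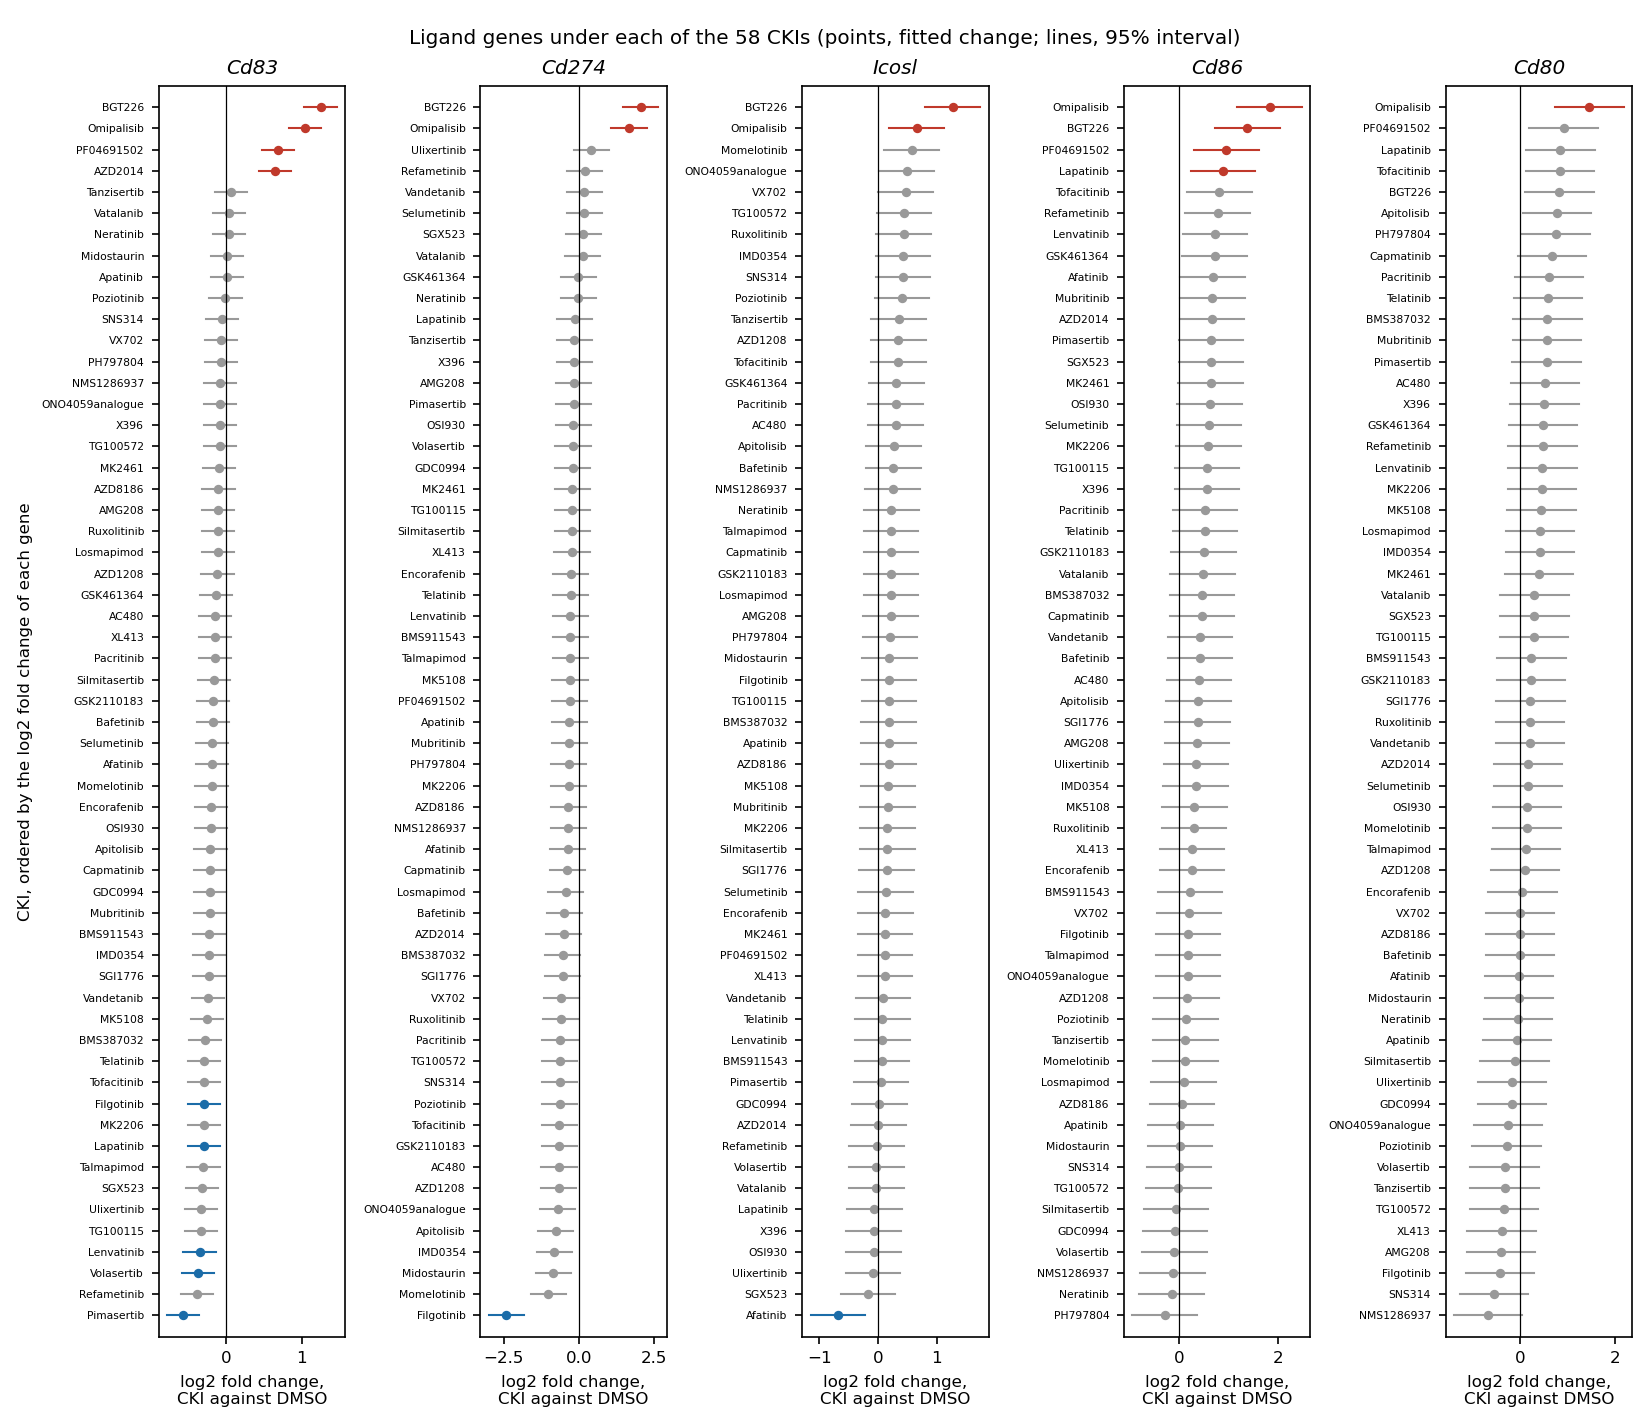
Fitted log2 fold change of each of the 5 tested genes under each of the 58 CKIs, ordered within each gene; lines are 95% intervals, red and blue mark adjusted p under 0.05 (higher and lower) and grey the rest. BGT226 and Omipalisib lead 4 of the 5 genes, Omipalisib leads Cd80, and Filgotinib stands alone at the low end of Cd274 with a log2 fold change of -2.41.

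Library totals were 9481416 to 11094387 normalized reads in DMSO and 9477340 to 12273349 with CKIs. Macrophage markers were high throughout, with all 10 passing the filter and a summed value of 104614 to 232254 in DMSO. Of the 8 dendritic cell markers 2 passed, Ccr7 and Xcr1, and the defining genes Flt3 and Zbtb46 averaged 8.17 and 6.83 in DMSO. T cell markers summed to 2 to 22 in DMSO, with 0 of 5 passing. The deposited scaling left a positive median over all genes in several CKIs: 0.21 with BGT226, 0.18 with Lenvatinib, 0.12 with Omipalisib and Pimasertib, 0.11 with Lapatinib and 0.10 with PF04691502. Rescaling by the median of ratios brought these medians to within 0.02 of 0. It moved the share of called genes that were higher from 79.2% to 50.6% with BGT226, from 68.2% to 49.4% with Omipalisib, from 67.8% to 42.1% with PF04691502, from 77.4% to 52.0% with Lapatinib, from 93.4% to 27.2% with Lenvatinib, from 73.8% to 46.9% with Pimasertib and from 29.4% to 41.2% with Filgotinib. None of the called changes of the ligand genes reversed with it.

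Among the ligands of CD28, Cd86 rose in 4 CKIs and Cd80 in 1. Cd86 measured 440, 321 and 189 in DMSOs1 and 559, 190 and 231 in DMSOs2. With Omipalisib, a PI3K inhibitor, its counts were 1138, 1094 and 920, and all 3 samples lay above every DMSO sample. Its mean of 1051 ± 115 (SD, n = 3) compared with 322 ± 151 (SD, n = 6) in DMSO, a log2 fold change of 1.82 with an SE of 0.33 (limma adjusted p = 4.48e-06). Of all genes tested, 17.5% were called higher with Omipalisib. Pooled over all genes and the 58 CKIs, all 3 samples lay above the DMSO range in 4.52% of pairs and below it in 2.02%. These pooled shares are not those of Omipalisib or BGT226 alone.

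BGT226, an inhibitor of PI3K and mTOR, gave Cd86 counts of 1116, 650 and 620, again above every DMSO sample. The log2 fold change was 1.38 with an SE of 0.33 (limma adjusted p = 0.000446), and 24.1% of genes were called higher with this CKI. Smaller changes of Cd86 passed the threshold with PF04691502, another inhibitor of PI3K and mTOR (763, 443 and 552), and with Lapatinib, an inhibitor of EGFR and ERBB2 (605, 557 and 477). These 2 groups overlapped with DMSO, whose highest sample was 559. Their log2 fold changes were 0.95 (limma adjusted p = 0.0399) and 0.88 (limma adjusted p = 0.0407), where 8.86% and 18.1% of genes were called higher. Both calls were lost under the median-of-ratios scaling and without single libraries, among them DMSOs1 replicate 3, DMSOs2 replicates 2 and 3 and, for Lapatinib, each of its own samples; PF04691502 lost it without its replicate 1 or 3.

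Cd80 was a low-abundance transcript, at 35, 41 and 28 in DMSOs1 and 73, 26 and 26 in DMSOs2. With Omipalisib the counts were 118, 111 and 76, so that even the lowest sample exceeded the highest DMSO sample of 73. The log2 fold change was 1.47 with an SE of 0.36 (limma adjusted p = 0.0011). It was lost with the second replicate of every condition left out, at 1.33 and an adjusted p of 0.0902. The next changes of Cd80 did not pass: 0.92 with PF04691502 (limma adjusted p = 0.0745), 0.85 with Lapatinib, 0.84 with Tofacitinib, an inhibitor of JAK kinases, and 0.83 with BGT226 (limma adjusted p = 0.0703). Without DMSOs2 replicate 1, the sample at 73, these 4 and Apitolisib passed, and Cd80 was called in 6 CKIs. At the low end of Cd80 lay NMS1286937, a PLK1 inhibitor, with 15, 25 and 28.

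For Lapatinib, Lenvatinib and Pimasertib, the samples of each replicate number deviated together with the DMSO samples of that number, and a fit with the replicate number as a block also called 3 further changes. These were Cd80 with Lapatinib (log2 fold change 0.85, limma adjusted p with the block = 0.0259), Cd86 with Lenvatinib (0.72, limma adjusted p with the block = 0.0287) and Cd86 with Pimasertib (0.64, limma adjusted p with the block = 0.0394). None of the 3 was called once the mitochondrial share was added to the block, in a fit chosen after the data were seen.

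Reads over Cd80 cannot be assigned without doubt, because 2 pseudogenes on the same strand overlap it, Ck-ps3 with a mean of 55.3 normalized reads over all samples and Gm8590 with 11.4, beside a mean of 45.1 for Cd80 itself. The antisense transcript Gm41453 had a mean of 5.50.

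Cd86 and Cd80 were the most alike pair of ligands over the 59 condition means, with a Spearman correlation of 0.68, as a description over points that share culture, protocol and normalization. Whether the 2 moved by different amounts was tested as the log2 ratio of Cd86 to Cd80 within each sample, with a two-sided exact permutation test over 84 splits. In DMSO the mean log2 ratio was 3.02 ± 0.32 (SD, n = 6). The ratio passed in 0 of 58 CKIs after adjustment, with 6 at an unadjusted p under 0.05 and a lowest adjusted p of 0.518. With 84 splits no exact permutation p could fall below 0.0119, and a few CKIs at that value could not pass the adjustment. The adjusted result therefore cannot decide whether the 2 genes moved by different amounts. PH797804, a p38 inhibitor, showed the largest difference, -1.05 (exact permutation p = 0.0119, the smallest the design allows). There Cd86 measured 307, 220 and 205, the lowest mean of all conditions at 244, while Cd80 measured 70, 60 and 53. Each gene overlapped with its DMSO samples.

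**Figure D3:**
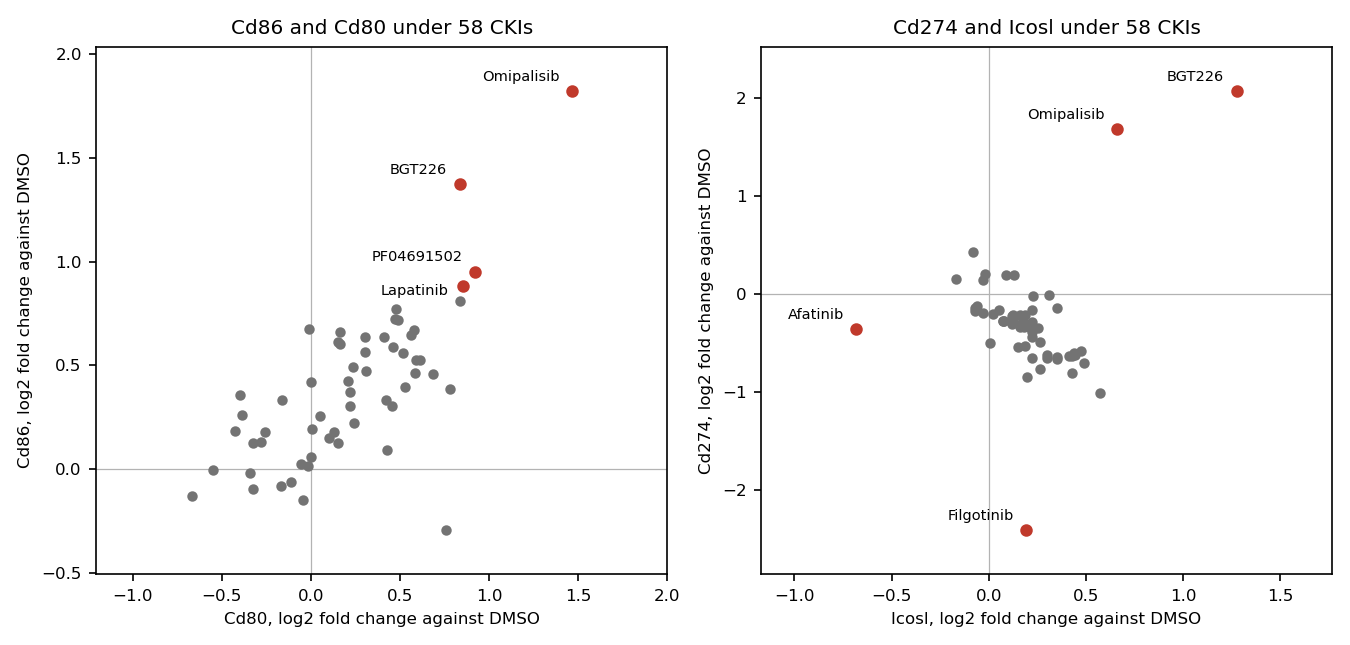
Log2 fold changes of 2 pairs of ligands under the 58 CKIs, Cd86 against Cd80 (left) and Cd274 against Icosl (right), with the CKIs in which a plotted gene was called in red. Cd86 and Cd80 run together (Spearman 0.68 over the 59 condition means), while the correlation of Cd274 with Icosl is -0.50, and both are high in BGT226 and Omipalisib.

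Icosl measured 1101, 1247 and 1059 in DMSOs1 and 878, 1264 and 1099 in DMSOs2, a narrow range. BGT226 gave 2140, 2495 and 3546, well above every DMSO sample, with a log2 fold change of 1.28 and an SE of 0.24 (limma adjusted p = 4.71e-06). Omipalisib gave 1578, 1707 and 1956, also above every DMSO sample, with a log2 fold change of 0.66 (limma adjusted p = 0.0275). The Omipalisib call was lost under the median-of-ratios scaling and without DMSOs2 replicate 1 or Omipalisib replicate 2 or 3. In the other direction, Afatinib, an EGFR inhibitor, gave 482, 597 and 1119. Its replicate 3 lay within the DMSO range and the other 2 below it. The log2 fold change was -0.68 (limma adjusted p = 0.0259), where 12.8% of genes were called lower. Leaving out Afatinib replicate 3 moved it to -1.03, and without replicate 1 it was -0.43 and no longer called, as was also the case without replicate 2 or DMSOs2 replicate 2. Momelotinib, an inhibitor of JAK1 and JAK2 that the study used to target the kinase IKBKE, had the next highest level of Icosl. Its counts were 1384, 1742 and 1820, above every DMSO sample, with a log2 fold change of 0.57 that did not pass (limma adjusted p = 0.335).

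Of the 5 tested genes, Cd274 showed the largest changes in both directions. In DMSO it measured 3414, 3568 and 1811 in set 1 and 3786, 3052 and 2059 in set 2, with the third replicate lowest in each set. With BGT226 the counts were 14443, 9569 and 12337, and with Omipalisib 9944, 7772 and 9777. Every sample of both CKIs lay above every DMSO sample, at 4.11 and 3.11 times the DMSO mean of 2948 ± 824 (SD, n = 6). The log2 fold changes were 2.07 with an SE of 0.30 (limma adjusted p = 4.04e-09) and 1.68 (limma adjusted p = 2.63e-06). Genes called higher in both of these CKIs made up 13% of all genes tested. PF04691502 and AZD2014, an mTOR inhibitor, gave values for Cd274 within or below the DMSO range (3089, 1757 and 2243; 2800, 1493 and 1934) and log2 fold changes of -0.30 and -0.50 that did not pass.

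Filgotinib, a JAK1 inhibitor, lowered Cd274 to 654, 443 and 525, below every DMSO sample. The mean of 541 was 0.183 times that of DMSO, a log2 fold change of -2.41 with an SE of 0.30 (limma adjusted p = 8.74e-11), while 14.6% of genes were called lower. In the same samples Cd86 measured 351, 359 and 297 and Icosl 1132, 1323 and 1325, and neither was called (log2 fold changes 0.18 and 0.19). The exact permutation test of pair ratios, chosen after the values were seen, gave a difference of 2.59 for Cd86 against Cd274, of 2.60 for Icosl against Cd274 and of -2.12 for Cd274 against Cd83. Each had an exact permutation p of 0.0119, the smallest the design allows, and an adjusted p of 0.0916 over 100 such tests. The decrease of Cd274 relative to the other ligands therefore did not pass this test after adjustment, in a design that could not give a smaller p.

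The other CKIs designated against JAK kinases gave smaller changes of Cd274, and none was called. Momelotinib gave 2253, 1173 and 1056, with a log2 fold change of -1.01 and a 95% interval of -1.60 to -0.43 (limma adjusted p = 0.0863). Tofacitinib gave 2048, 1482 and 1967 (-0.65, limma adjusted p = 0.12), Pacritinib 2028, 1620 and 1904 (-0.62, limma adjusted p = 0.244) and Ruxolitinib 1999, 2149 and 1536 (-0.60, limma adjusted p = 1). BMS911543 gave 2439, 1842 and 2854, inside the DMSO range, with -0.28 and an interval of -0.86 to 0.31. All 5 overlapped with DMSO, although each mean lay below that of DMSO. The fitted log2 fold change of Cd274 was above 0 in 8 of the 58 CKIs. Next in order after Filgotinib and Momelotinib stood Midostaurin (1962, 1387 and 1441, -0.85, limma adjusted p = 0.0833). Without DMSOs1 replicate 3, the lowest DMSO sample, Momelotinib, Midostaurin and Apitolisib passed and Cd274 was called in 6 CKIs. Apitolisib, which the study used to target JAK1, also passed under the median-of-ratios scaling, at -0.89 (limma adjusted p = 0.0403). That scaling gave 2 higher and 2 lower calls of Cd274. An antisense transcript, Gm36043, overlaps Cd274 with a mean of 35.0 normalized reads and at most 118.

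Cd83 was the most abundant ligand transcript and the one called in most CKIs. It measured 13686, 13509 and 15779 in DMSOs1 and 12239, 14809 and 14176 in DMSOs2. BGT226 gave 30878, 33167 and 35753, Omipalisib 28312, 28615 and 29310, PF04691502 21792, 22941 and 23129, and AZD2014 20860, 23252 and 21664. All 12 samples of these inhibitors of PI3K or mTOR lay above every DMSO sample. Their log2 fold changes were 1.25 (SE 0.11, limma adjusted p = 1.55e-19), 1.04 (limma adjusted p = 8.92e-15), 0.69 (limma adjusted p = 4.93e-07) and 0.65 (limma adjusted p = 5.76e-07). With AZD2014, 6.06% of all genes were called higher.

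No other CKI raised Cd83 past the threshold. The next mean in order, with Tanzisertib, was 14815 ± 2327 (SD, n = 3), within the spread of DMSO at 14033 ± 1207 (SD, n = 6). Other CKIs designated against PI3K or AKT did not share the rise. Apitolisib, designated against PI3K and mTOR but used by the study to target JAK1, gave 12641, 11792 and 12059 (-0.20, limma adjusted p = 0.168). TG100115 gave -0.33, MK2206 -0.29, GSK2110183 -0.17 and AZD8186 -0.10, and the main fit called Cd83 in none of these CKIs. The TG100115 samples, at 11076, 12031 and 10422, lay below every DMSO sample. Without DMSOs2 replicate 1, Cd83 was called lower with TG100115 (-0.36, limma adjusted p = 0.0333) and MK2206 (-0.33, limma adjusted p = 0.0420).

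Cd83 fell in 5 CKIs. The lowest level was with Pimasertib, an inhibitor of the ERK kinase kinases MEK1 and MEK2, at 10125, 9072 and 9276, all below every DMSO sample. Its log2 fold change was -0.56 with an SE of 0.11 (limma adjusted p = 0.000118), where 5.68% of genes were called lower. Refametinib and Selumetinib, 2 further MEK inhibitors, gave -0.38 (limma adjusted p = 0.115) and -0.18, and Refametinib too lay below every DMSO sample at 10526, 11312 and 10375. Lenvatinib, a VEGF receptor inhibitor that the study used to target RIPK2, gave 10679, 11591 and 10770 (-0.35, limma adjusted p = 0.0328). Lapatinib gave 11502, 12025 and 10863 (-0.29, limma adjusted p = 0.0390) and Filgotinib 10930, 11517 and 11966 (-0.29, limma adjusted p = 0.0422). Volasertib, a PLK1 inhibitor, gave 10550, 12914 and 9414 (-0.36, limma adjusted p = 0.0497) and alone among these overlapped with DMSO. The shares of genes called lower were 0.802% with Lenvatinib, 5.26% with Lapatinib and 1.34% with Volasertib. These 4 smaller decreases were lost in 5 to 7 of the 9 fits that left out a single CKI or DMSO library, whereas that with Pimasertib and the 4 increases were kept in each of these fits. Over all 58 CKIs, all 3 samples of Cd83 lay below the DMSO range in 9 and above it in 4, where 2.02% and 4.52% of all gene and CKI pairs did so.

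**Figure D4:**
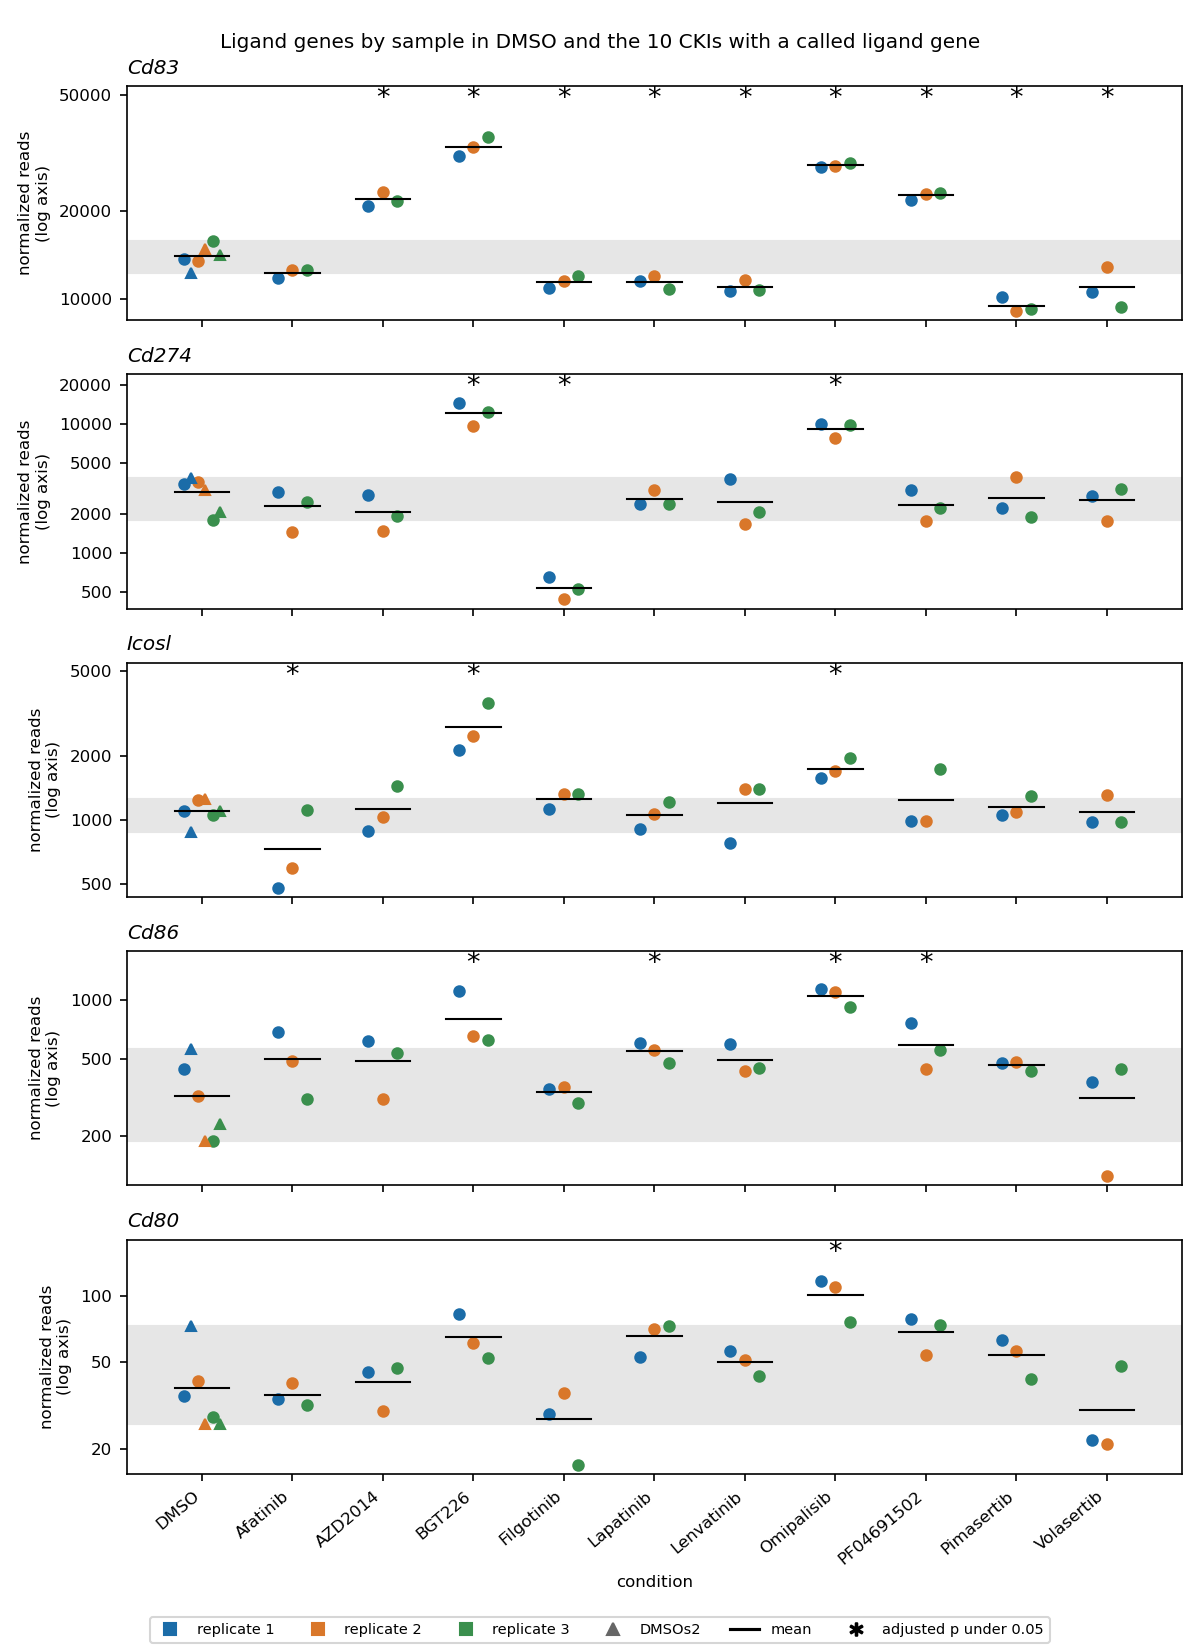
Normalized exonic reads (log axes) of the 5 tested genes in each sample of DMSO and of the 10 CKIs with a called gene; grey bands span the 6 DMSO samples, triangles are DMSOs2, lines are means, colours the replicate number and asterisks adjusted p under 0.05. BGT226 and Omipalisib lie above the band in Cd83, Cd274, Icosl and Cd86, and Filgotinib lies far below it in Cd274.

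Set side by side by the calls without a replicate block, Omipalisib raised all 5 tested genes and BGT226 all but Cd80. PF04691502 raised Cd86 and Cd83, and AZD2014 raised Cd83 only among the calls, with Cd86 at 0.66 and a 95% interval of 0.01 to 1.31. With Filgotinib, Cd274 and Cd83 were lower. Lapatinib had Cd86 higher and Cd83 lower. In bulk RNA, a change in the share of cells that express a ligand cannot be told apart from a change in RNA per cell. The summed dendritic cell markers were 96 to 163 in DMSO, 183 to 303 with Omipalisib and 163 to 185 with BGT226. These were led by the chemokine receptor Ccr7 (log2 fold changes 1.33 and 1.37, limma adjusted p = 0.00241 and 0.00119). The lowest BGT226 sum equalled the highest of DMSO. With AZD2014 and PF04691502, in which Cd83 was also higher, the sums of 105 to 186 and 147 to 214 overlapped with DMSO. With AZD2014, 1 of the 2 tested markers was called higher and 1 lower, beside 771 and 1719 of 12714 genes. With Afatinib, in which Icosl was lower, the dendritic cell markers summed to 55 to 99, and Xcr1 was called lower (-0.74, limma adjusted p = 0.0277). Their part in the ligand changes was not tested. Neutrophil and granulocyte precursor markers summed to 298 to 1008 in DMSO, 1336 to 1540 with Lapatinib and 1361 to 1560 with Pimasertib, and 4 of the 7 tested were called higher in each. They summed to 246 to 416 with Omipalisib and 283 to 658 with BGT226, where 0 were higher and 2 of the 7 lower, Mpo and Elane. Of all genes, 18.1% were called higher with Lapatinib and 2031 of 12714 with Pimasertib. Called lower were 8.16% with Omipalisib and 6.32% with BGT226. Mitochondrial genes took 0.759% to 1.94% of reads in DMSO, 3.24% to 4.29% with Pimasertib, 1.71% to 4.45% with PF04691502, 2.07% to 3.70% with Lenvatinib and 1.92% to 3.71% with Lapatinib. With the mitochondrial share and the replicate block in the fit, the changes of Cd83 with Lapatinib, Lenvatinib and Filgotinib and of Cd86 with Lapatinib and PF04691502 were no longer called, in a fit chosen after the data were seen, and that of Cd83 with Pimasertib was kept at -0.40. The same fit called Cd80 lower with Filgotinib, at -0.79 (limma adjusted p = 0.00918). It also called Cd80 higher with BGT226 (0.61, limma adjusted p = 0.0351). Cd86 was called higher in that fit with AZD2014 (0.64, limma adjusted p = 0.00427) and Afatinib (0.48, limma adjusted p = 0.0373). For Filgotinib, BGT226, AZD2014 and Afatinib, deviations did not correlate with DMSO over 0.1 at every replicate number. The lowest correlations were 0.008, 0.060, -0.088 and -0.305. The mitochondrial share was measured after treatment and differed between CKIs, so that fit cannot tell its part from that of a CKI.

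The samples of a replicate number shared part of their spread, in the same direction across conditions. Among the 60 groups of 3, replicate 1 was the highest for Cd86 in 46, for Cd80 in 38 and for Cd274 in 35. For Icosl the reverse held, with replicate 1 the lowest in 50 groups, and for Cd83 it was the lowest in 32. Each number would come first in 20 of 60 groups if the numbers carried no information. The labels do not say what a replicate number stands for.

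**Figure D5:**
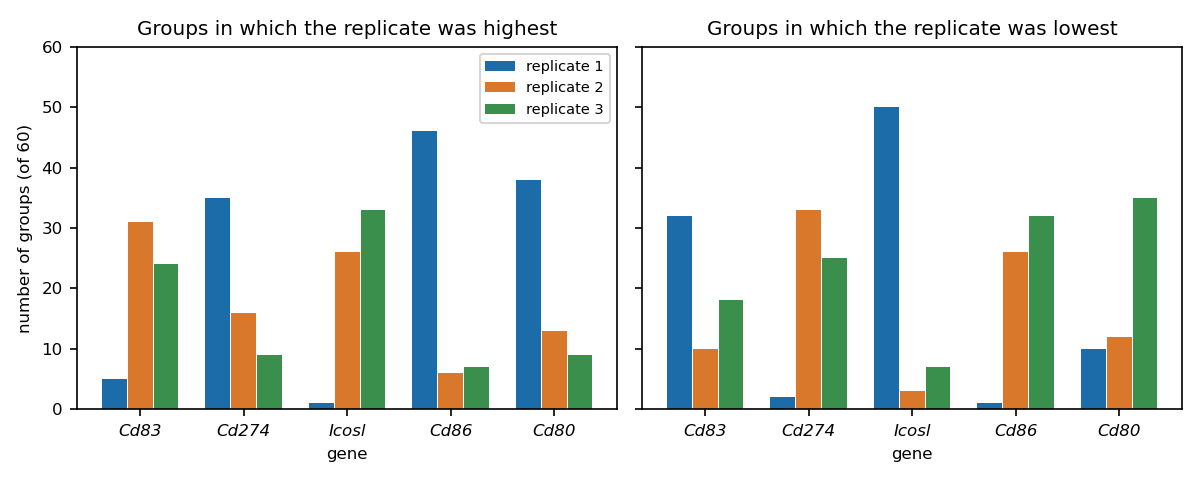
Number of the 60 groups (58 CKIs and 2 DMSO sets) in which replicate 1, 2 or 3 had the highest (left) or lowest (right) value of each gene; groups with a tie are not counted. Replicate 1 is highest for Cd86 in 46 groups and lowest for Icosl in 50.

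The ligands of the tumour necrosis factor family and CD40, which act beside CD28 in costimulation, were listed as 8 genes, of which 6 were tested. In Omipalisib 5 of these 6 were higher and 0 lower, with a median log2 fold change of 1.62 against 0.12 over all genes, and in BGT226 4 were higher, with a median of 1.14 against 0.21. Beside these counts, 17.5% of all genes tested were higher with Omipalisib and 24.1% with BGT226. Tnfsf14, which encodes LIGHT, was called higher in 6 of the 10 CKIs, with log2 fold changes of 3.0 in BGT226 (limma adjusted p = 2.73e-20) and 2.47 in Omipalisib. Tnfsf9, which encodes the 4-1BB ligand, rose in the same 4 CKIs as Cd83, by 1.27 in AZD2014 and 1.20 in BGT226. Tnfsf8, the CD30 ligand, rose in BGT226 (1.20) and Omipalisib (1.75) and fell in Filgotinib (-1.34, limma adjusted p = 0.00319). Cd40, the receptor for CD40 ligand on antigen-presenting cells, rose in Omipalisib (0.88) and fell in Filgotinib (-1.07).

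Of 8 tested further checkpoint and B7-family ligands, 2 were higher and 1 lower in BGT226, with a median log2 fold change of 0.23 against 0.21 over all genes, and 2 higher and 2 lower in Omipalisib, with a median of -0.01 against 0.12. Of all genes tested, 24.1% were higher and 6.32% lower with BGT226, and 17.5% higher and 8.16% lower with Omipalisib, so the counts of higher members lay near those shares. Cd200, a ligand that restrains myeloid cells, rose in both (1.49 and 1.47). Nectin2, a ligand of TIGIT and CD226, was lower in 6 of the 10 CKIs, by -1.48 in Volasertib and -1.28 in BGT226. Cd47, the signal that restrains phagocytosis, was lower in 5, by -0.65 in Filgotinib. Cd276 was lower in AZD2014 (-0.92) and Omipalisib (-0.77). Among 10 adhesion and SLAM-family molecules, 4 were higher in Omipalisib, 4 higher and 1 lower in BGT226, and 5 higher in Lapatinib, where 17.5%, 24.1% and 18.1% of all genes were higher. The median log2 fold changes of these molecules were 0.72, 0.64 and 0.65, against 0.12, 0.21 and 0.11 over all genes. Icam1, the ligand of LFA-1, rose in the same 4 CKIs as Cd83, by 0.31 to 0.68, while Vcam1 was lower in 5 CKIs (-1.08 in BGT226). Of 5 receptors of the ligands 2 were tested, and each was called once: Cd28 in Pimasertib (1.22, limma adjusted p = 0.0311) and Rgmb, a receptor of PD-L2, in Lapatinib (0.97).

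Genes of the interferon pathway were listed as 19 genes. In Filgotinib 9 of the 19 were lower and 0 higher, with a median of -0.89 against -0.04 over all genes. Of all genes tested, 14.6% were lower with Filgotinib. The interferon regulatory factor Irf8 fell by 2.23 and the JAK feedback inhibitor Socs1 by 3.05 on the log2 scale. In Omipalisib 7 were higher and 0 lower (median 0.56), and in BGT226 4 higher and 1 lower (median 0.25, near the 0.21 of all genes). Of all genes, 17.5% were higher with Omipalisib and 24.1% with BGT226, so the 4 of 19 in BGT226 lay near that share. Ifnb1, the interferon beta gene, rose in 5 of the 10 CKIs, by 3.67 in Omipalisib (limma adjusted p = 1.37e-13) and 1.68 in BGT226. Ifnb1 also rose in Lapatinib (1.75), Lenvatinib (1.56) and Pimasertib (1.35), in which Cd274 was not called. A link between Ifnb1 and Cd274 was not tested. Irf9, the DNA-binding subunit of the interferon-activated factor ISGF3, rose in 6 CKIs, by 0.41 to 0.52.

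In the list of 18 NF-kB feedback and target genes, 9 were higher and 0 lower in Omipalisib, 3 higher and 4 lower in BGT226 and 0 higher and 6 lower in Afatinib. Their median log2 fold changes were 0.43, 0.23 and -0.13, against 0.12, 0.21 and 0.03 over all genes. The 3 higher of 18 in BGT226 were a smaller share than the 24.1% of all genes, and 17.5% of all genes were higher with Omipalisib. Lower were 6.32% of all genes with BGT226 and 12.8% with Afatinib. Nfkb2, a subunit of the noncanonical pathway, was lower in 7 CKIs, BGT226 among them (-0.50), and Relb, its partner, in 5. Traf1, an adaptor of TNF receptors, rose in 6 (1.11 in BGT226). Of 16 tested PI3K-FOXO and ERK feedback genes, 10 were higher and 1 lower in Omipalisib and 8 higher in BGT226, beside the 17.5% and 24.1% of all genes called higher. The medians were 0.88 and 0.92, against 0.12 and 0.21 over all genes. Irs2, an insulin signalling adaptor repressed when PI3K is active, rose by 2.74 in BGT226 and 2.29 in Omipalisib. Dusp6, the ERK phosphatase induced by ERK itself, was higher in 6 CKIs and lower in Pimasertib (-1.18). Among 7 genes of antigen presentation and its regulation, Ciita, the transactivator of MHC class II, rose in 5 CKIs, by 2.52 in BGT226 and 1.84 in Omipalisib, and fell in Volasertib (-0.76). Nlrc5, that of MHC class I, was higher in the same 2 (1.15 and 0.95) and lower in Filgotinib (-1.29).

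The genes whose means over the 59 conditions ran most like each ligand are given as a description, over means that share culture, protocol and normalization. For Cd274 these were Slfn5 (Spearman correlation 0.93), Fndc3a (0.91) and Slfn8 (0.91), Slfn5 and Slfn8 being members of the Schlafen family. For Cd86 they were Irf9 (0.91), the SLAM-family receptor Ly9 (0.87) and Ccrl2 (0.87), an atypical chemokine receptor. Cd83 ran most like Maf1 (0.84), a repressor of RNA polymerase III, Pcyox1 (0.81) and Tbc1d22a (0.78). Cd80 ran most like Ppp2r5c (0.84), a regulatory subunit of protein phosphatase 2A, Gm33887 (0.83) and Snx27 (0.82), and Icosl most like Zfp36l1 (0.78), an RNA-decay factor, Tob2 (0.74) and Ets2 (0.72). Among the ligands themselves the correlations were 0.40 for Cd83 with Icosl, 0.30 for Cd86 with Cd274 and -0.50 for Cd274 with Icosl. No ligand was among the 3 closest genes of another.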

How the data were processed

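Poly(A) RNA from LPS-stimulated BMDMs was profiled by SMART-seq2, whose libraries carry no strand mark. The authors mapped reads to mm10 with TopHat2 (2.1.1), used bedtools (2.29.2) and R (3.6.2), counted reads per gene against RefSeq, scaled samples on invariant genes and compared each CKI with DMSO by DESeq2. The deposited values are normalized exonic read counts rounded to whole numbers, treated here as scores and not as raw counts, so that limma (3.58.1, R 4.3.3) with a variance trend on log2(value + 1) took the place of a count test.

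All 180 samples entered 1 fit of 59 groups, with both DMSO sets as reference, since the labels do not tie CKIs to a set. Between the sets 0 genes passed limma, with 310 at an unadjusted p under 0.05. Genes with a mean of at least 10 were tested, 12714 of 45070. Groups came from sample titles. Lengths and positions came from the deposited annotation columns, and promoters from RefSeq.

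Members, lists and tests were chosen with earlier results of these data known. Named genes are the 6 ligands, the 3 genes most like each, and up to 4 genes per list called in the most CKIs among the 10; 1 gene of the interferon list is not reported here and was left out of its counts. CKIs named are those with a called ligand and the extremes of each ligand, and CKIs of the same designated target class, named after their values were seen.

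Same-numbered samples had a mean correlation of deviations of 0.226, and different-numbered ones -0.113. It was over 0.1 in 71.8% of 5310 same-numbered pairs, and at every number against DMSO only for Lapatinib, Lenvatinib and Pimasertib among the 10. Alternatives were another pseudocount, filter or scaling, single DMSO sets, no variance trend, only the groups compared, a replicate block and single libraries left out. Ratios were tested with permutation code written in Python (3.11.15) and NumPy (2.4.6).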

Additional observations from a re-analysis of the deposited data

Results flagged for a closer look

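The Cd80 count of 73 in DMSOs2 replicate 1 stood apart from the other 5 DMSO samples, which lay between 26 and 41. Its gap to the nearest sample was 0.681 of the whole range, past Dixon's limit for 6 samples, which chance passes in about 1 of 20 groups. The same library had the highest DMSO counts of Cd86 (559) and Cd274 (3786) and the lowest of Icosl (878) and Cd83 (12239). Without it, Cd80 was called in 6 CKIs in place of 1.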

How the results depend on the processing

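The 20 called changes kept their direction in every alternative. The number of CKIs called was 1 for Cd80, 4 for Cd86, 3 for Icosl, 3 for Cd274 and 9 for Cd83. Without the filter it was 2 for Cd86, 1 for Icosl and 5 for Cd83, and with either DMSO set alone likewise 2, 1 and 5; both add genes or drop samples. Median-of-ratios scaling left 2 for Cd86 and, for Icosl, 1 higher and 1 lower. Fits of only the groups compared left 2 for Cd86 and 5 for Cd83. Requiring an absolute log2 fold change of at least 1 left 2 for Cd86, 1 for Icosl and 2 for Cd83. The replicate block gave 5 for Cd80, 10 for Cd86 and 6 for Cd274, with 4 for Icosl and 13 for Cd83, and with the mitochondrial share, an alternative chosen after seeing the data, 3 for Cd80, 1 of them the decrease with Filgotinib, and 5 for Cd274. Calls gained with the block and kept with that share included Icosl with Momelotinib (0.57, limma adjusted p with the block = 0.0377) and Cd274 with Momelotinib and Midostaurin (0.0155 and 0.0220). The others were Cd80 with BGT226 (0.83, limma adjusted p with the block = 0.0263) and Cd86 with AZD2014 (0.66, 0.0411) and Afatinib (0.68, 0.0327). For BGT226, AZD2014 and Afatinib, deviations did not correlate with DMSO over 0.1 at every replicate number. Of all 180 samples, 155 correlated best with their own replicate number, a hint from the data only. Leaving out libraries or replicate numbers gave 0 to 6 for Cd80, 2 to 8 for Cd86, 1 to 3 for Icosl, 3 to 6 for Cd274 and 5 to 13 for Cd83; the counts of 6 for Cd80, 8 for Cd86 and 13 for Cd83 came without DMSOs2 replicate 1, and that of 6 for Cd274 without DMSOs1 replicate 3. For the Cd86 to Cd80 ratio within replicate numbers, the smallest exact permutation p the design allows was 0.0370, which became 0.614 after adjustment. A filter at 50 gave no value for Cd80. Apart from these constructions the cause was not tested. Differences of Pdcd1lg2 were not detectable at this depth.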
